A study of Mus musculus with 13 samples.

Results

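The 9 genes described here are the set of astrocyte genes for transport, coupling and metabolism that is usually called homeostatic: Slc1a2, Slc1a3, Aqp4, Gja1, Gjb6, Glul, Aldh1l1, Aldoc and Fgfr3. They were chosen by name, and all 9 were found by their Ensembl identifiers among the 55536 genes quantified in each library. RNA of mouse frontal cortex was sequenced in 13 libraries. At 11 months of age there were 3 libraries of 5XFAD mice (strain label 5XFAD) and 3 of wild-type (WT) mice (strain label B6SJLF1/J). At 6 months there were 3 of 5XFAD mice and 4 of WT mice with the same strain labels. 5XFAD mice carry mutated human transgenes, APP among them, which regulatory sequence of the mouse Thy1 gene drives in neurons, and they deposit amyloid in the brain. No treatment is given in the labels. The study thus compared genotypes at either age and ages in either genotype.

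Astrocytes clear glutamate from the synaptic cleft through Slc1a2 and Slc1a3, glutamate transporters of the plasma membrane. Glul, glutamine synthetase, turns that glutamate into glutamine, which neurons take up again. Gja1 and Gjb6 are connexins whose gap junctions join astrocytes into a network for ions and metabolites, and Aqp4 is the water channel of the endfeet that astrocytes place on blood vessels. Aldh1l1 is a folate enzyme and Aldoc the aldolase of astrocytes; both are widely used markers of the cell type. Fgfr3 is a receptor for fibroblast growth factors that mature astrocytes carry.

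The genes are scattered over the genome (GENCODE M21 on GRCm38). Slc1a2 lies at chr2:102658659-102790784 on the plus strand, Slc1a3 at chr15:8634124-8710764 on the minus strand and Glul at chr1:153899944-153909723 on the plus strand. Gja1 lies at chr10:56377330-56402513 on the plus strand and Gjb6 at chr14:57123303-57133611 on the minus strand. Aldh1l1 lies at chr6:90486427-90600203, Aldoc at chr11:78322968-78327781 and Fgfr3 at chr5:33721674-33737068, all on the plus strand. All 9 are protein-coding. Annotated genes overlap Slc1a2, Slc1a3, Aqp4, Glul, Aldh1l1 and Fgfr3, on the other strand in 5 of these 6; the strand setting of the counting is not given in the sources used here, so reads of such neighbours cannot be told apart from those of the member. No annotated gene overlaps Gja1, Gjb6 or Aldoc.

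The promoters of 4 members are printed because each of these genes was called with age in 1 genotype and they play different roles: glutamine synthesis, the pair of connexins, and glutamate uptake. Each is the 300 bases from 250 before to 50 after the start that RefSeq gives on GRCm38.p6, read 5′ to 3′ on the gene's strand, and capitals mark the motifs found. The windows are Glul at chr1:153899679-153899978 (plus strand), Gja1 at chr10:56377050-56377349 (plus strand), Gjb6 at chr14:57133562-57133861 (minus strand) and Slc1a3 at chr15:8710758-8711057 (minus strand).
Glul: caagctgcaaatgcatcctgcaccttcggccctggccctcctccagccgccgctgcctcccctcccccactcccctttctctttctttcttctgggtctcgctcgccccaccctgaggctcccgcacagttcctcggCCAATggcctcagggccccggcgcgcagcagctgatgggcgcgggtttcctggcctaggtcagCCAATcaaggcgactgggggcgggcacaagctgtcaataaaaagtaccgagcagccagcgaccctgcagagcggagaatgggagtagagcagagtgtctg
Gja1: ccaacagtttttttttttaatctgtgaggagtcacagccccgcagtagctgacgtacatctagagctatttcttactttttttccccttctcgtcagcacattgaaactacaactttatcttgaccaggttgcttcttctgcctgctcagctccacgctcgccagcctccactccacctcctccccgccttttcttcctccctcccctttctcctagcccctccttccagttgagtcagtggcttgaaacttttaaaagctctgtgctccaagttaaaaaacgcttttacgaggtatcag
Gjb6: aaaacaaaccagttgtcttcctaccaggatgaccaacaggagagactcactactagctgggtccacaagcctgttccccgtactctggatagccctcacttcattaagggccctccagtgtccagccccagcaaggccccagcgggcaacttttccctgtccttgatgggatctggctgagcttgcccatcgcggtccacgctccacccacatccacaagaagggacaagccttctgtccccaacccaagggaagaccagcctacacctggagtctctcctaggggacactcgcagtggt
Slc1a3: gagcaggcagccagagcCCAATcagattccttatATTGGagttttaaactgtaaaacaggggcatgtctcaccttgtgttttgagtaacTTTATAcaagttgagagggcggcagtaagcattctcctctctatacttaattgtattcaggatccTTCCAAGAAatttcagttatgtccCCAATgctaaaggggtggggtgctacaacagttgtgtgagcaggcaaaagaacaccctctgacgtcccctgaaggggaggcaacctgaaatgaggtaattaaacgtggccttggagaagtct
In these windows 4 motifs were searched on both strands: CCAAT (the CCAAT box), TATAAA (the TATA box), TTCNNNGAA (a STAT site) and TTGGCA (a half-site of nuclear factor I). On the opposite strand CCAAT reads as ATTGG and so can overlap TTGGCA. Glul held 2 CCAAT boxes. Slc1a3 held 3 CCAAT boxes, 1 TATA box on the reverse strand and 1 STAT site, and Gja1 and Gjb6 held no match. RefSeq windows were matched for 8 of the 9 members, 10 windows in all. CCAAT was in 4 of the 10, against 37.4% of all 32851 mouse windows of this length. A STAT site was in 2 of the 10 (8.3% of all windows), a TATA box in 1 (13.6%) and the nuclear factor I half-site in 1 (14.1%), so no motif was common to the members.

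Over the series, libraries held 23618289 to 26615772 counts, and 7.89% to 11.43% of them were mitochondrial. Thy1, whose regulatory sequence drives the transgenes, was higher in 5XFAD by 2.29 ± 0.15 on the log2 scale at 11 months and by 1.93 ± 0.14 at 6 months, as the labels give it (edgeR's quasi-likelihood test with Benjamini-Hochberg adjustment, adjusted p = 1.236e-06 and 5.2733e-06). By Xist and Y-linked genes, 2 of 3 5XFAD and 1 of 3 WT libraries at 11 months, and 0 of 3 5XFAD and 2 of 4 WT libraries at 6 months, were female. The 3 WT libraries at 11 months differed most among themselves, with a chi-square per gene of 49.43 to 55.95 between pairs, against 6.101 to 31.01 in the other groups. WT replicate 1 at 6 months stood apart by the choroid plexus gene Ttr, at 2912 CPM (counts scaled to library size by TMM) against 1.615 to 30.8 CPM in the other 12 libraries. Whether each library is a separate animal is not in the labels, and the p-values therefore cover only the spread seen between libraries, some of which may be technical. They give no batch, so age and any difference in handling between ages cannot be told apart. Each of the 9 genes was detected in every library, as were the 32 other astrocyte markers examined.

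Levels are compared between genes in TPM, which is scaled for transcript length. Aldoc was highest in all 4 groups, at 1239 ± 166 TPM in 5XFAD and 1136 ± 246 TPM in WT at 11 months, and 938 ± 51.1 TPM in 5XFAD and 821 ± 79.7 TPM in WT at 6 months (SD, n = 3, 3, 3 and 4). Glul came next, at 806 ± 92.2 and 859 ± 160 TPM in 5XFAD and WT at 11 months and 569 ± 15.6 and 542 ± 56.6 TPM at 6 months. Slc1a2 (171 to 248 TPM as a group mean), Slc1a3 (95.3 to 176 TPM) and Gja1 (44.0 to 64.2 TPM) held the third, the fourth and the fifth place in every group. Among these 5, the library ranges of neighbours in the order overlapped only for Aldoc and Glul in WT at 11 months, where Aldoc was still the higher in each library.

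The lower places were close. Aldh1l1, Gjb6 and Fgfr3 changed order between groups, with group means of 30.04 to 45.02, 25.8 to 53.7 and 23.1 to 45.5 TPM. Aqp4 was last everywhere, at 33.8 ± 6.58 TPM in 5XFAD and 18.7 ± 4.24 TPM in WT at 11 months, and at 18.1 ± 1.41 TPM in 5XFAD and 13.9 ± 0.58 TPM in WT at 6 months. In 5XFAD at 11 months its libraries overlapped those of Fgfr3 and Gjb6; in the other groups they lay below those of all other members. The TPM of Gjb6 depends on isoforms, since the mean transcript length the quantifier used for it ran from 1476 to 2044 bases between libraries; its counts do not use that length.

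All 9 genes were higher at 11 than at 6 months in the average over both genotypes. The age effect averaged over genotypes was 0.45 (Aldh1l1) to 0.76 (Slc1a3) on the log2 scale, with a median of 0.56 against 0.01 over all genes tested. Each of the 9 passed edgeR's quasi-likelihood test with Benjamini-Hochberg adjustment (adjusted p = 0.0018 to 0.00706), while 12.6% of the 17483 genes tested were called higher. This average was added after earlier values had been seen. In bulk tissue, more astrocytes and more RNA of these genes per astrocyte cannot be told apart.

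**Figure D1:**
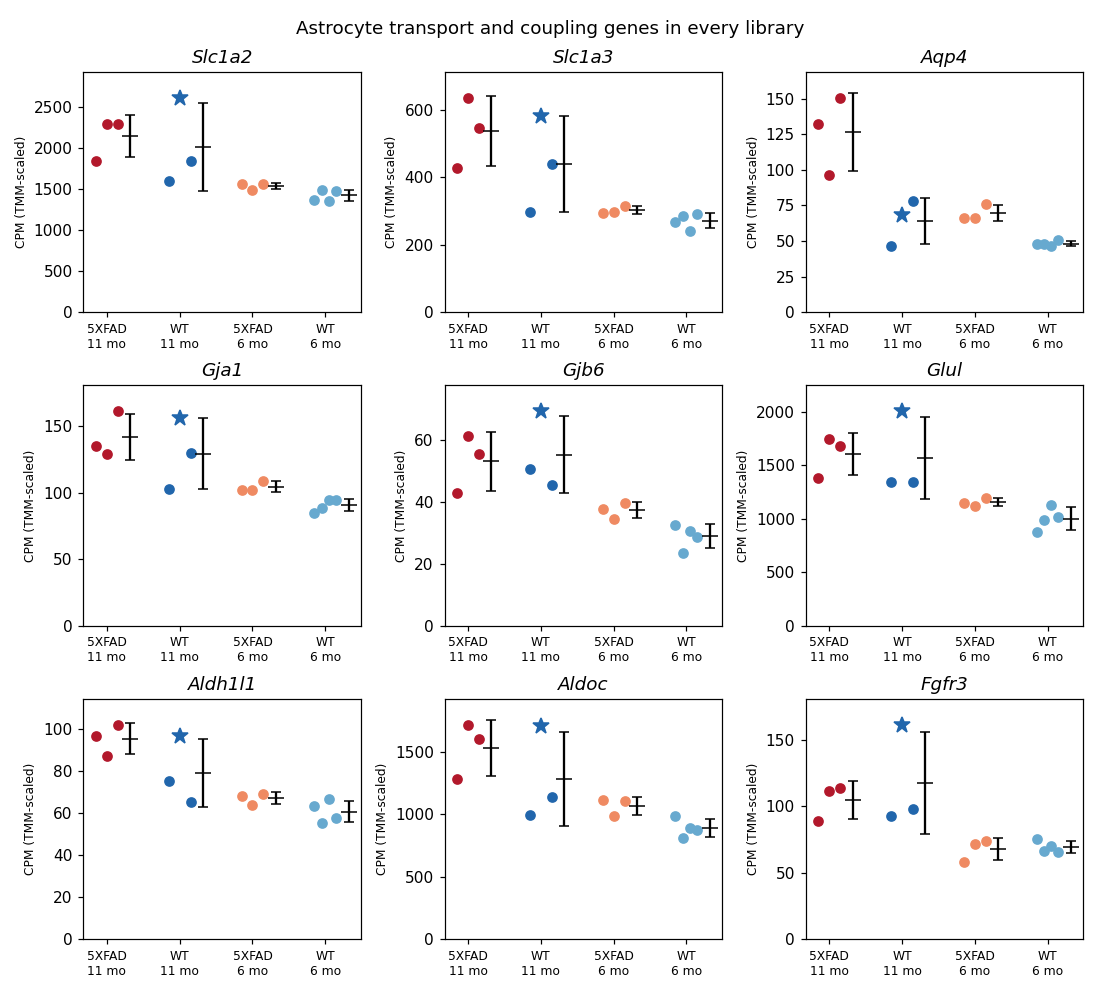
TMM-scaled CPM (y axis, from 0, own scale per gene) of the 9 genes in each library of the 4 groups (x axis); points are libraries, the star is WT replicate 2 at 11 months, and the black bar is the mean ± SD. In 5XFAD each gene's 11-month libraries lie above its 6-month libraries, and the star is the highest WT library at 11 months for all genes but Aqp4.

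Within 5XFAD the ages did not overlap for any member. Slc1a3 had 429.6, 637 and 547 CPM at 11 months, against 296, 298 and 316 CPM at 6 months. It rose by 0.83 ± 0.20 on the log2 scale (edgeR's quasi-likelihood test with Benjamini-Hochberg adjustment, adjusted p = 0.0267). Its partner Slc1a2 had 1845, 2288 and 2296 CPM at 11 months, against 1558, 1492 and 1560 CPM at 6 months. Every older library was above every younger one, but the difference of 0.48 ± 0.15 did not pass the threshold (adjusted p = 0.0677 by the same test).

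Glul, the enzyme downstream of both transporters, had 1380, 1748 and 1682 CPM in 5XFAD at 11 months, against 1146, 1120 and 1197 CPM at 6 months. The log2 difference was 0.47 ± 0.15 and missed the threshold (edgeR's quasi-likelihood test with Benjamini-Hochberg adjustment, adjusted p = 0.0721). Aqp4 had 133, 96.4 and 151 CPM at 11 months, against 65.9, 66.5 and 76.1 CPM at 6 months, a rise of 0.87 ± 0.18 (adjusted p = 0.0150 by the same test). Replicate 2 was lowest of the older libraries for Aqp4, Gja1 and Aldh1l1, whereas it was highest for Slc1a3, Gjb6, Glul and Aldoc.

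Both connexins were free of overlap between ages in 5XFAD. Gja1 had 136, 129 and 162 CPM at 11 months, against 102, 102 and 109 CPM at 6 months, a log2 difference of 0.44 ± 0.13 (edgeR's quasi-likelihood test with Benjamini-Hochberg adjustment, adjusted p = 0.0541). Gjb6 had 42.7, 61.3 and 55.4 CPM at 11 months, against 37.7, 34.6 and 39.8 CPM at 6 months, a difference of 0.51 ± 0.17 (adjusted p = 0.0810 by the same test). Neither passed the threshold at this spread.

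Of the marker enzymes, Aldh1l1 rose by 0.51 ± 0.13 in 5XFAD (edgeR's quasi-likelihood test with Benjamini-Hochberg adjustment, adjusted p = 0.0292), with 96.8, 87.3 and 102 CPM at 11 months against 68.2, 63.8 and 69.2 CPM at 6 months. Aldoc had 1285, 1722 and 1603 CPM at 11 months, against 1114, 984 and 1104 CPM at 6 months (0.53 ± 0.17, adjusted p = 0.0761 by the same test). The receptor gene Fgfr3 had 88.5, 111 and 114 CPM at 11 months, against 58.3, 71.3 and 73.8 CPM at 6 months (0.63 ± 0.18, adjusted p = 0.0558). In all, 3 of the 9 members were called higher with age in 5XFAD (Slc1a3, Aqp4 and Aldh1l1), where 4.84% of all genes tested were. All 9 were free of overlap between ages, as were, in the same direction, 18.4% of all genes. The members' median was 0.51, against -0.00051 over all genes. The 5XFAD libraries at 6 months were all male and 2 of the 3 at 11 months were female; with sex as a covariate Slc1a3 and Aqp4 were still called, Aldh1l1 was not and Glul was, against 3.25% of all genes, and all 9 differences stayed above 0.

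In WT 4 of the 9 members were called higher at 11 than at 6 months, against 2.42% of all genes: Gjb6, Fgfr3, Glul and Gja1. Gjb6 had 50.8, 69.4 and 45.6 CPM at 11 months, against 32.7, 23.5, 30.4 and 28.8 CPM at 6 months. The 2 ages did not overlap and the rise was 0.94 ± 0.16, or 1.92-fold (edgeR's quasi-likelihood test with Benjamini-Hochberg adjustment, adjusted p = 0.0173). Fgfr3 had 92.6, 161 and 98.1 CPM at 11 months, against 75.0, 65.9, 69.8 and 65.2 CPM at 6 months (0.77 ± 0.17, adjusted p = 0.0341 by the same test). Its older libraries were all above its younger ones, with replicate 2 far above the other 2.

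Glul had 1348, 2008 and 1342 CPM in WT at 11 months, against 875, 992, 1128 and 1014 CPM at 6 months, and rose by 0.64 ± 0.14 (edgeR's quasi-likelihood test with Benjamini-Hochberg adjustment, adjusted p = 0.0318). Gja1 had 103, 156 and 130 CPM at 11 months, against 85.1, 88.4, 94.8 and 94.9 CPM at 6 months, and rose by 0.51 ± 0.12 (adjusted p = 0.0390 by the same test). For both the ages did not overlap.

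Both transporters missed the threshold in WT. Slc1a3 had 297, 582 and 441 CPM at 11 months, against 267, 286, 241 and 293 CPM at 6 months (0.70 ± 0.18 on the log2 scale; edgeR's quasi-likelihood test with Benjamini-Hochberg adjustment, adjusted p = 0.0513). Slc1a2 had 1591, 2612 and 1837 CPM at 11 months, against 1360, 1491, 1358 and 1471 CPM at 6 months (0.50 ± 0.14, adjusted p = 0.0567 by the same test). Neither overlapped between ages, although replicate 1 at 11 months was close to the younger libraries in both.

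Aldoc had 999, 1712 and 1137 CPM in WT at 11 months, against 985, 808, 889 and 878 CPM at 6 months (0.53 ± 0.16; edgeR's quasi-likelihood test with Benjamini-Hochberg adjustment, adjusted p = 0.0699). Aldh1l1 had 75.3, 96.8 and 65.1 CPM at 11 months, against 63.1, 55.2, 66.4 and 57.8 CPM at 6 months (0.38 ± 0.12, adjusted p = 0.0732 by the same test). Aqp4 had 46.2, 68.5 and 77.8 CPM at 11 months, against 47.6, 47.9, 46.7 and 50.6 CPM at 6 months (0.41 ± 0.16, adjusted p = 0.153). Aldh1l1 and Aqp4 were the 2 members whose ages overlapped in WT. The other 7 did not, where 9.11% of all genes lay higher without overlap. The members' median was 0.53, against 0.02 over all genes tested.

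**Figure D2:**
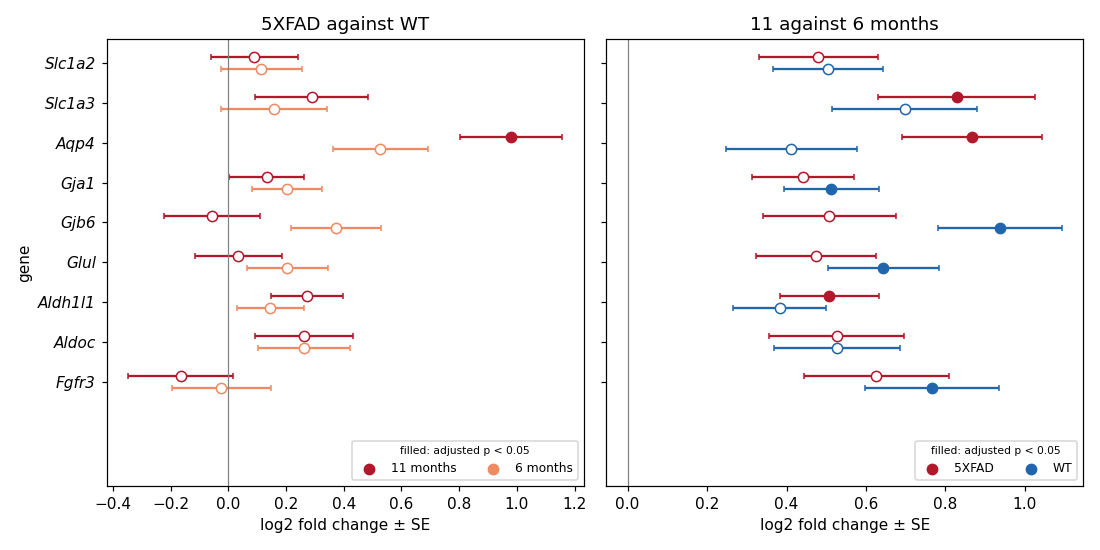
Log2 fold changes (x axis) of the 9 genes (y axis) for 5XFAD against WT at 11 and 6 months (left) and for 11 against 6 months in 5XFAD and WT (right), with SE bars; filled points passed an adjusted p under 0.05. All points on the right lie above 0, and on the left the only filled point is Aqp4 at 11 months.

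The number of members called with age in WT depended on several single libraries. The median difference was lowest on leaving out 1 of them. WT replicate 2 at 11 months was the highest of its group for 8 of the 9 members, at 1.20 (Gja1) to 1.65 (Fgfr3) times the higher of the other 2. For Aqp4, replicate 3 was highest. Without replicate 2 the 9 WT differences were still above 0, with a median of 0.36, but 0 of 9 were called; only 0.0112% of all 17870 genes then tested were called higher. The count also fell to 0 without WT replicate 2 or replicate 4 at 6 months, where 0.2% and 0% of all genes were called higher. It was 1 without WT replicate 1 or 5XFAD replicate 2 at 6 months, against 0.654% and 0.893% of all genes. It was 2 without WT replicate 3 at 6 months, against 1.85%, and 8 without WT replicate 1 at 11 months, against 5.58%.

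In 5XFAD the same omission of WT replicate 2 at 11 months raised the count to 9 of 9, against 6.12% of all genes. That library enters this contrast only through the shared estimate of the spread, the filter on low counts and the TMM scaling. Leaving out 5XFAD replicate 3 at 11 months, or 5XFAD replicate 1 or replicate 2 at 6 months, gave 0 calls, where 0.493%, 0.844% and 1.47% of all genes were called higher. The count was 1 without 5XFAD replicate 3 at 6 months (2.18% of all genes) and 2 without 5XFAD replicate 1 or replicate 2 at 11 months (2.48% and 3.53%). It was 7 without WT replicate 1 at 11 months (5.7%). DESeq2 called 9 members in 5XFAD and 8 in WT, against 7.98% and 7.15% of all genes. The age effect averaged over genotypes was still called for 9 of 9 members without WT replicate 2 at 11 months, against 8.52% of all genes. Over 22 alternative settings per contrast, every age difference of the 9 members was above 0, from 0.33 to 1.03 in 5XFAD and from 0.21 to 1.06 in WT.

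**Figure D3:**
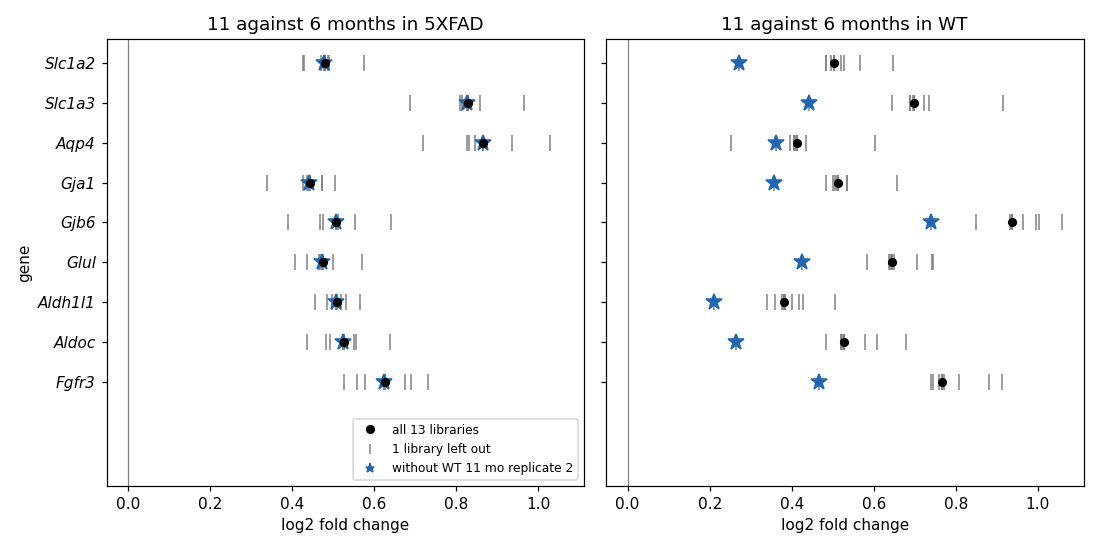
Log2 fold changes of 11 against 6 months (x axis) for the 9 genes (y axis) in 5XFAD (left) and WT (right), with all 13 libraries (black) and with 1 library left out (grey ticks); stars are without WT replicate 2 at 11 months. All values are above 0; in WT the star is the lowest value for all genes but Aqp4.

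Markers of other cells moved beside the age result. Of all genes, 4.84% were called higher with age in 5XFAD and 2.42% in WT (0.0112% in WT without WT replicate 2 at 11 months). The 8 endothelial markers summed to 166 to 201 CPM in 5XFAD and 191 to 294 CPM in WT at 11 months, and to 108 to 123 CPM in 5XFAD and 121 to 159 CPM in WT at 6 months. Of these 8, 5 were called higher with age in 5XFAD and 5 in WT (0 in WT without WT replicate 2 at 11 months), and that library had the highest sum, 294 CPM. It also had the highest summed mural cell markers, 272 CPM against 176 and 192 CPM in the other WT libraries of its age. Microglial markers, 10 in all, had 8 called higher with age in 5XFAD and 0 in WT, with median log2 differences of 0.87 and 0.47. Of 6 markers of oligodendrocyte precursors, 1 was called in 5XFAD and 2 in WT (0 in WT without WT replicate 2 at 11 months), with medians of 0.28 and 0.29. Of 7 mural cell markers, 2 were called in 5XFAD and 0 in WT, and of 7 meningeal markers 1 in 5XFAD (median 1.19) and 0 in WT. The endothelial medians were 0.81 in 5XFAD and 0.83 in WT. Medians were below 0 for 8 oligodendrocyte markers (-0.36 in 5XFAD, -0.13 in WT) and 8 inhibitory neuron markers (-0.21 and -0.04), with 0 called. The oligodendrocyte sum ran from 6563 to 13982 CPM in WT at 6 months. The inhibitory neuron sum ran from 618 to 1388.5 CPM in WT at 11 months. Excitatory neuron markers had 0 of 8 called with age in either genotype, but WT replicate 3 at 11 months was low in them, at 3688 CPM against 5529 and 7775 CPM. No endothelial, mural, microglial, precursor or excitatory marker was at 0 in any library. Their part in the age result was not tested.

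Between genotypes, Aqp4 was the one member that was called. It had 133, 96.4 and 151 CPM in 5XFAD at 11 months, against 46.2, 68.5 and 77.8 CPM in WT. The genotypes did not overlap, and Aqp4 rose by 0.98 ± 0.18 on the log2 scale, 1.97-fold (edgeR's quasi-likelihood test with Benjamini-Hochberg adjustment, adjusted p = 0.00458). At that age 1 of 9 members was called higher, against 3.80% of all genes, and 1 of 9 lay higher without overlap, against 10.4%. In a model of the 2 groups alone the size was the same, 0.99, but the adjusted p was 0.0909; Aqp4 was called in 21 of 22 alternatives, with values of 0.79 to 1.15.

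At 6 months Aqp4 had 65.9, 66.5 and 76.1 CPM in 5XFAD, against 47.6, 47.9, 46.7 and 50.6 CPM in WT. All 5XFAD libraries were higher, by 0.53 ± 0.16, but the adjusted p of edgeR's quasi-likelihood test with Benjamini-Hochberg adjustment was 0.236. The model of the 2 groups alone gave an adjusted p of 0.00538 for 0.53 by the same test. It was the 1 of 22 alternatives in which Aqp4 was called at 6 months, and the cause was not tested. Averaged over both ages the genotype difference of Aqp4 was 0.75 ± 0.12 (adjusted p = 0.00141 by the main test), and it was the one member called there, against 4.88% of all genes.

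Microglial markers moved with the genotype too: the 10 summed to 1866 to 2496 CPM in 5XFAD and 455 to 764 CPM in WT at 11 months, and to 1016 to 1166 CPM in 5XFAD and 423 to 457 CPM in WT at 6 months, with 9 and 8 of the 10 called higher. Of all genes, 3.8% and 1.3% were called higher. None of the 10 markers was at 0 in any library, and their part in the Aqp4 result was not tested.

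The other 8 members did not pass the genotype test at either age. At 11 months their log2 differences ran from -0.17 ± 0.18 (Fgfr3) to 0.29 ± 0.20 (Slc1a3), and the libraries of both genotypes overlapped for all 8. Fgfr3, for example, had 88.5, 111 and 114 CPM in 5XFAD, against 92.6, 161 and 98.1 CPM in WT. The differences were 0.09 ± 0.15 for Slc1a2, 0.03 ± 0.15 for Glul, 0.13 ± 0.13 for Gja1, -0.06 ± 0.17 for Gjb6, 0.27 ± 0.12 for Aldh1l1 and 0.26 ± 0.17 for Aldoc. Without WT replicate 2 at 11 months, Aldoc and Aldh1l1 were called beside Aqp4, 3 of 9 against 3.97% of all genes. Scaling by TPM moved the median of all genes to -0.13 at 11 months and -0.11 at 6 months; on that scale, log2(TPM + 1), Slc1a2 was at -0.02 at both ages and Glul at -0.08 at 11 months. Gjb6 moved most, to -0.38 at 11 months and 0.05 at 6 months, without a call at either age.

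At 6 months 0 of 9 members were called by edgeR and 0 by DESeq2, where edgeR called 1.30% of all genes higher and DESeq2 1.9%. At an unadjusted p under 0.05 in edgeR's test there were 2, Aqp4 and Gjb6, beside 1589 of all 17483 genes in either direction. Even so, 5 of 9 lay higher in 5XFAD without overlap, against 6.97% of all genes: Slc1a2, Slc1a3, Aqp4, Gja1 and Gjb6. The margin was narrowest for Slc1a2, with 1558, 1492 and 1560 CPM in 5XFAD against 1360, 1491, 1358 and 1471 CPM in WT (0.11 ± 0.14 on the log2 scale). It was widest for Aqp4, where the lowest 5XFAD library had 65.9 CPM and the highest WT library 50.6 CPM. Gjb6 had 37.7, 34.6 and 39.8 CPM in 5XFAD, against 32.7, 23.5, 30.4 and 28.8 CPM in WT, a difference of 0.37 ± 0.16 in counts but of 0.05 in log2(TPM + 1). The median of the 9 genotype differences was 0.20 at 6 months and 0.13 at 11 months, against -0.01 and -0.03 over all genes tested. At 6 months the 5XFAD libraries were all male, and 2 of the 4 WT libraries were female. With sex as a covariate the 6-month median was 0.14 and 7 of the 9 were above 0. None was called there, against 0.949% of all genes called higher. The small differences of the main test are not shown to be absent: their SEs of 0.12 to 0.20 leave room for changes of that size.

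The genotype effect was not shown to differ between ages for any member. The interaction, the 11-month genotype difference minus the 6-month one, was 0.45 ± 0.24 for Aqp4 and -0.43 ± 0.23 for Gjb6, the 2 largest. Both had an adjusted p of 0.99952 by edgeR's quasi-likelihood test with Benjamini-Hochberg adjustment, and an unadjusted p of 0.0826 and 0.0816. The other 7 lay between -0.17 and 0.13. With 0 of 9 called by edgeR, the members stood beside a background of 1 gene called among 17483, or 0.00572%. DESeq2 also called 0 of 9, where it called 28 of 17014 genes higher, or 0.165%. At an unadjusted p under 0.05 in edgeR's test there were 0 members, beside 692 of all genes in either direction.

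The members differed in how closely they followed their common profile. That profile is the mean of the 9 centred log2 CPM profiles over the 13 libraries, and likeness is the root mean square distance to it. Aldoc was nearest at 0.09, then Slc1a2 and Gja1 at 0.10 each and Glul at 0.11, while Aqp4 was farthest at 0.35, place 3043 of 9840 genes of at least 10 CPM. The 5 nearest genes outside the set were Mlc1 (0.07), a membrane protein of astrocyte endfeet, Gpr37l1 (0.08), an astrocyte receptor, Prex2, Sparcl1, a secreted matrix protein of astrocytes, and Itpr2, the calcium release channel of astrocytes (0.09 each), of 9831 candidates.

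These 5 genes had age differences like those of the members. Mlc1 rose by 0.60 ± 0.12 in 5XFAD and by 0.46 ± 0.11 in WT (edgeR's quasi-likelihood test with Benjamini-Hochberg adjustment, adjusted p = 0.0142 and 0.0425). Prex2 rose by 0.75 ± 0.12 in 5XFAD and 0.64 ± 0.11 in WT (adjusted p = 0.00545 and 0.0180 by the same test). Without WT replicate 2 at 11 months neither was called in WT (0.29 and 0.48, adjusted p = 0.178 and 0.0891). Since they were picked for this profile, these values describe them and support nothing. Gene by gene, the nearest neighbour was Sfxn5 for Slc1a2, Ptprz1 for Slc1a3, Man2b1 for Aqp4, Gpam for Gja1, Mcc for Gjb6, Pon2 for Glul, Necap2 for Aldh1l1, Gpr37l1 for Aldoc and Nwd1 for Fgfr3. Distances ran from 0.08 (Slc1a2) to 0.15 (Aqp4), so no member had another member as its nearest gene.

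**Figure D4:**
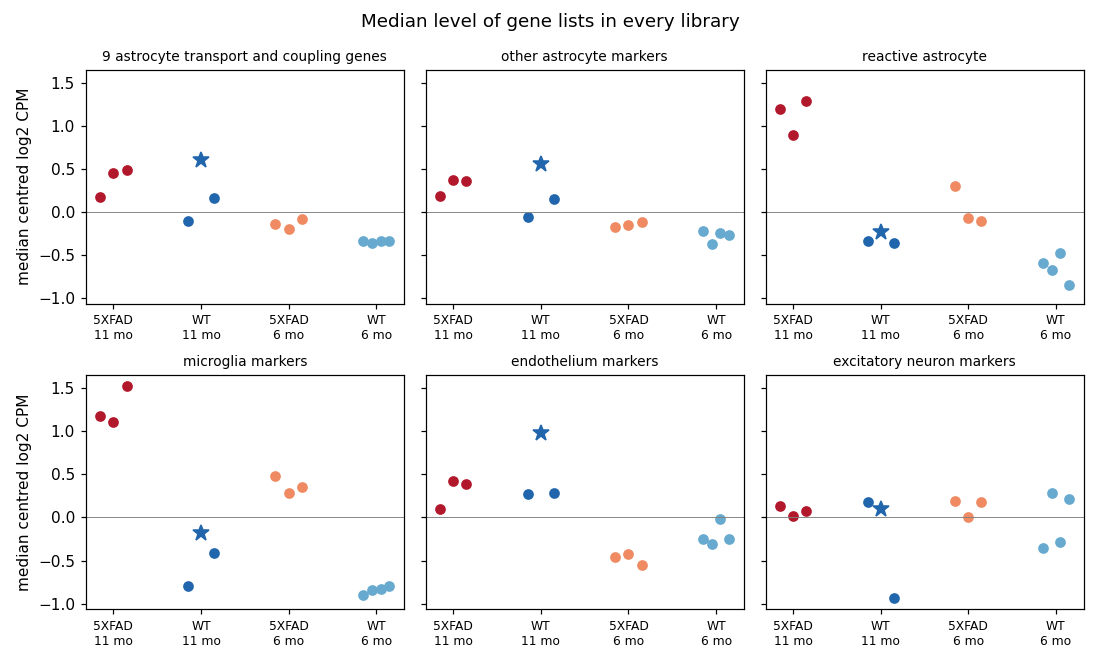
Median over each list of log2 CPM centred per gene (y axis) in every library of the 4 groups (x axis), for the 9 genes and 5 other lists; points are libraries and the star is WT replicate 2 at 11 months. Within each genotype the 9 genes and other astrocyte markers are higher at 11 months, whereas reactive astrocyte genes and microglial markers are highest in 5XFAD at 11 months.

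Genes of the same pathways were read beside the members, and each count is to be set against the share of all genes called higher. That share was 4.84% with age in 5XFAD and 2.42% with age in WT. Between genotypes it was 3.8% at 11 months and 1.3% at 6 months. Around glutamate uptake and Glul, 20 genes were tested. Of these, 1 was called higher with age in 5XFAD, near the share of all genes, and 0 in WT or between genotypes at either age. It was Slc38a3, a glutamine exporter of astrocytes, at 89.2 ± 2.48 CPM at 11 months and 60.5 ± 7.32 CPM at 6 months (SD, n = 3 each), a rise of 0.56 ± 0.15 on the log2 scale (edgeR's quasi-likelihood test with Benjamini-Hochberg adjustment, adjusted p = 0.0355). The call was lost on leaving out any 1 of the 6 5XFAD libraries. The list's median age difference was 0.09 in 5XFAD and 0.14 in WT.

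Beside the connexins, 11 other gap junction genes were tested, of which 2 were called higher with age in 5XFAD, 1 in WT and 0 between genotypes. Tjp1, a scaffold of junctions, rose by 0.48 ± 0.08 in 5XFAD and 0.53 ± 0.08 in WT (edgeR's quasi-likelihood test with Benjamini-Hochberg adjustment, adjusted p = 0.00921 and 0.0142). Gjb2, a further connexin, rose by 1.02 ± 0.26 in 5XFAD (adjusted p = 0.0316 by the same test), at a low level: 5.00 ± 0.50 CPM at 11 months and 2.46 ± 0.61 CPM at 6 months; this call was also lost without any 1 of the 6 5XFAD libraries. With sex as a covariate Gjb2 was not called either. The Tjp1 call was lost in 5XFAD without 5XFAD replicate 3 at 11 months, and in WT without WT replicate 2 at 11 months or WT replicate 4 at 6 months. Both Tjp1 calls were also lost with log2(TPM + 1) and log2(TPM + 0.1), and the WT call in the model of the 2 groups alone.

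Next to Aqp4, 18 genes of water, potassium and endfeet were tested. Between genotypes 1 was called at each age, the urea transporter gene Slc14a1. It had 37.1 ± 3.90 CPM in 5XFAD and 7.79 ± 1.49 CPM in WT at 11 months, a rise of 2.25 ± 0.16 (edgeR's quasi-likelihood test with Benjamini-Hochberg adjustment, adjusted p = 1.6007e-06). At 6 months it had 17.5 ± 2.30 CPM in 5XFAD and 6.64 ± 0.91 CPM in WT (1.40 ± 0.14, adjusted p = 1.0791e-04 by the same test). With age, 3 of the 18 were called higher in 5XFAD, Mlc1 (0.60) and Slc14a1 (1.08) among them. In WT 4 were called (0 without WT replicate 2 at 11 months), Atp1b2 (0.48), a subunit of the sodium pump, among them. The Slc14a1 calls held in all 22 alternatives of each contrast. The Mlc1 call in 5XFAD was lost without 5XFAD replicate 3 at 11 months or 5XFAD replicate 1 or replicate 2 at 6 months.

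Of 23 glycolysis and lactate genes, the family of Aldoc, Hk2 (hexokinase) was called between genotypes at both ages and no other was. It had 9.43 ± 1.40 CPM in 5XFAD and 4.01 ± 0.50 CPM in WT at 11 months (1.23 ± 0.18; edgeR's quasi-likelihood test with Benjamini-Hochberg adjustment, adjusted p = 0.000752), and 5.02 ± 0.81 CPM in 5XFAD and 2.64 ± 0.34 CPM in WT at 6 months (0.92 ± 0.17, adjusted p = 0.0130 by the same test). Unlike Aldoc, the list as a whole had a median age difference of -0.02 in 5XFAD and -0.10 in WT. With age 1 gene was called higher in 5XFAD (Hk2, 0.91) and 2 in WT (Ppp1r3c, 0.67, a regulator of glycogen, and Slc2a1, 0.64, a glucose transporter). The 6-month genotype call of Hk2 was lost without WT replicate 4 or 5XFAD replicate 3 of that age, and its age call without 5XFAD replicate 3 at 11 months or 5XFAD replicate 1 or replicate 2 at 6 months. Both of these Hk2 calls were also lost with log2(TPM + 1) and log2(TPM + 0.1), and its 11-month genotype call with log2(TPM + 0.1). In TPM, Hk2 in 5XFAD was at 5.16 ± 1.23 at 11 months and 4.19 ± 0.47 at 6 months. Both WT calls were lost without any 1 of WT replicate 1, replicate 2 or replicate 4 or 5XFAD replicate 2 at 6 months, and without WT replicate 2 at 11 months, among others.

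Among 13 folate genes, the mitochondrial relative of Aldh1l1, Aldh1l2, was the 1 called: it had 8.27 ± 1.61 CPM in 5XFAD and 4.63 ± 0.59 CPM in WT at 11 months (0.84 ± 0.21; edgeR's quasi-likelihood test with Benjamini-Hochberg adjustment, adjusted p = 0.0362). That call was lost in 11 of 22 alternatives, 6 of them without 1 library each. Of 17 genes of the fibroblast growth factor pathway of Fgfr3, 2 were called between genotypes at 11 months, Fgfrl1, a receptor without a kinase, higher (0.76 ± 0.17, adjusted p = 0.0165) and Spry4, a feedback inhibitor, lower (-0.67 ± 0.16, adjusted p = 0.0239 by the same test). With age 3 rose in 5XFAD: Fgfr1 (0.64), Fgfrl1 (0.74) and the adaptor Frs2 (0.39, adjusted p = 0.0482 by the same test). In WT 1 rose, again Frs2 (0.48). Leaving out 1 library ended the Fgfrl1 genotype call for 3 of the 13 libraries, the Spry4 call for 4 and the Fgfr1 and Fgfrl1 age calls for 3 each. It ended the Frs2 call in WT for 5, and WT replicate 2 at 11 months was among those for Spry4 and Frs2.

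Wider astrocyte lists were read in the same way, beside the same shares. Without WT replicate 2 at 11 months, 6.12% of all genes were called higher with age in 5XFAD and 0.0112% in WT. Between genotypes at 11 months that share was 3.97%. Of 32 other astrocyte markers, 9 were called higher with age in 5XFAD and 9 in WT (16 and 0 without WT replicate 2 at 11 months), with medians of 0.43 and 0.50; 3 were called between genotypes at 11 months (6 without that library, where their median was 0.24 against 0.05 with it) and 1 at 6 months. Cst3, cystatin C, had 2444 ± 207 CPM in 5XFAD and 1303 ± 218 CPM in WT at 11 months (0.91 ± 0.13; edgeR's quasi-likelihood test with Benjamini-Hochberg adjustment, adjusted p = 0.000535), and is also made by microglia. Clu, clusterin, differed by 0.71 ± 0.14 and S100b by 0.52 ± 0.13 (adjusted p = 0.00661 and 0.0321 by the same test); the S100b call was lost without any 1 of 6 libraries, the Clu and Cst3 calls held whichever 1 library was left out. Of 12 astrocyte transcription factors, Stat3 alone was called at 11 months between genotypes, by 0.65 ± 0.10 (adjusted p = 0.00117).

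Of 20 reactive astrocyte genes tested, 12 were called higher in 5XFAD at 11 months and 5 at 6 months, with median log2 differences of 1.74 and 0.72. Of all genes, 3.8% and 1.3% were called higher. Gfap, the intermediate filament of astrocytes, had 1263 ± 71.2 CPM in 5XFAD and 112 ± 24.1 CPM in WT at 11 months, a rise of 3.49 ± 0.30 (edgeR's quasi-likelihood test with Benjamini-Hochberg adjustment, adjusted p = 1.8935e-05). Serpina3n, a protease inhibitor, rose by 3.71 ± 0.18 at 11 months and 1.57 ± 0.15 at 6 months (adjusted p = 9.3851e-08 and 7.8008e-05 by the same test). With age 10 of the 20 were called higher in 5XFAD and 1 in WT, against 4.84% and 2.42% of all genes. The calls of Gfap and Serpina3n held in all 22 alternatives. Whether reactive genes and the 9 members differ in this was not itself tested.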

How the data were processed

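Frontal cortex RNA of 13 mouse libraries in 4 groups was analysed, grouped by title. Per the submitters' processing notes, the authors used STAR 2.7.1 and RSEM with the GRCm38 build; the sources used here name no RSEM version, annotation or strand setting. The deposited expected counts, which RSEM estimates by sharing ambiguous reads, were rounded (7.24% to 7.71% of values per library were not whole). TPM values, which the authors deposited and RSEM corrects for length, served for levels between genes and in an alternative. All gene identifiers matched GENCODE M21. Libraries held 23618289 to 26615772 counts, and no pair agreed within sampling noise (chi-square per gene 6.101 or more within groups).

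Genes were filtered with filterByExpr (minimum count 10, minimum total 15), which kept 17483 and all 9 members, and scaled by TMM. With edgeR 4.0.16 in R 4.3.3, 1 model of 4 group means over all 13 libraries was fitted and tested by the robust quasi-likelihood F test with Benjamini-Hochberg adjustment; the threshold was an adjusted p of 0.05. A ± beside a log2 difference is an SE, the size of the unshrunken log2 fold change over the square root of F; beside a level it is an SD. CPM is TMM-scaled. The procedure was tested on simulated data in which all groups shared the same spread per gene, so that test does not cover unequal spread. Groups spread unequally, and WT at 11 months, the most variable group, shares its estimate with the rest.

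The members and the lists were chosen with earlier results of these data known. From each list the text names the genes with the smallest p among those past the threshold, up to 4 at 11 months, 3 at 6 months and 2 per age comparison and interaction; to keep it short, some genes so chosen are left out. Genes outside the lists were named by distance to the members' profiles. Alternatives were DESeq2 1.42.0, RLE scaling, no filter, limma 3.58.1 on log2(TPM + 1) and log2(TPM + 0.1) for genes of mean TPM of at least 0.5, voom with sample weights, sex as a covariate, an offset for transcript length, the 2 groups alone, and each library left out. Contrasts averaged over ages or genotypes were added later. C4b and other reactive genes with close copies are uncertain where reads were shared. The human transgenes were not analysed here. A result for 1 gene of the lists is not reported here.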

Additional observations from a re-analysis of the deposited data

Results flagged for a closer look

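Among 36 genes examined in the WT group at 6 months, the only group large enough, 2 had a library far from the other 3; chance flags about 1 in 20 groups. Gfap had 127 CPM in replicate 3, against 66.0, 54.1 and 64.6 CPM in the other WT libraries of that age, a gap of 0.8368 of the group's range. Slc14a1 had 7.99 CPM in replicate 1, against 6.18, 6.36 and 6.05 CPM, a gap of 0.837 of the range. None of the 9 members was flagged in this way.

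The genotype effect on Serpina3n, a reactive astrocyte gene, differed between ages: 5XFAD exceeded WT by 3.71 ± 0.18 on the log2 scale at 11 months and by 1.57 ± 0.15 at 6 months, a difference of 2.1332 (edgeR's quasi-likelihood test of the interaction with Benjamini-Hochberg adjustment, adjusted p = 0.00456). It was the 1 gene of 17483 called in that test, and no member was.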

How the results depend on the processing

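No paired analysis was possible because the titles give each library its own number, so no replicate number is shared between groups. All age differences of the 9 members kept their direction under the 22 alternatives, but the calls did not. Leaving out 1 library at a time gave 0 to 9 members called with age in 5XFAD and 0 to 8 in WT, and 1 to 3 at 11 months between genotypes. In 5XFAD with age, 5 members were called without the filter (2.59% of all genes called higher) and with TPM + 1 and TPM + 0.1 (4% and 3.46%), and 9 with DESeq2 (7.98%), voom weights (13%) or the 2 groups alone (8.93%). In WT with age, 8 were called with DESeq2 (7.15%), 2 with sex as a covariate (1.42%), 1 with voom weights (0.795%) or the length offset (0.378%), and 0 with the 2 groups alone (0%). Averaged over genotypes, 9 were called with age (12.6% of all genes), also 9 without WT replicate 2 at 11 months (8.52%). Between genotypes, the 2 groups alone gave 0 at 11 months and 1 at 6 months (2.48% and 1.48% of all genes). Averaged over ages 1 was called (4.88% of all genes), and 3 without WT replicate 2 at 11 months (5.04%). Fewer samples or another estimate of the spread enter these fits; the causes were not otherwise tested.

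Some small differences changed sign. Between genotypes at 11 months, leaving out 1 library gave -0.0559 to 0.3210 for Slc1a2, -0.0123 to 0.2863 for Gja1, -0.1795 to 0.1391 for Gjb6, -0.0673 to 0.2523 for Glul and -0.3123 to 0.1332 for Fgfr3, and at 6 months -0.0899 to 0.0737 for Fgfr3. With TPM + 1 and TPM + 0.1, Slc1a2 was at -0.0224 in both at 11 months and at -0.0174 and -0.0175 at 6 months, and Glul at -0.0813 and -0.0814 at 11 months. At 6 months Slc1a3 was at -0.0053 with sex as a covariate and Fgfr3 at 0.0295 with voom weights.

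For the interaction, leaving out 1 library gave -0.1703 to 0.2065 for Slc1a2, -0.0886 to 0.3834 for Slc1a3, -0.2160 to 0.0825 for Gja1, -0.2720 to 0.0474 for Glul, -0.1553 to 0.2610 for Aldoc and -0.2880 to 0.1574 for Fgfr3. With sex as a covariate it was 0.1300 for Slc1a2, 0.0517 for Gja1, 0.0211 for Glul and 0.1827 for Aldoc; with voom weights 0.0447 for Slc1a2, 0.0332 for Gja1 and 0.0263 for Aldoc. Without the filter it was 0.0031 for Slc1a2 and 0.0257 for Aldoc, with the length offset 0.0516 for Slc1a2, and for Aldoc 0.0114 with RLE scaling and 0.0124 with DESeq2. Groups of 3 or 4 libraries, unequal spread and unbalanced sexes limit all of these comparisons; where 1 library of a group is left out, the rest are assumed to vary like the other groups.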
